A study of Homo sapiens with 6 samples.

Results

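Clone c2 is 1 of the 2 clones of K562 cells in the series that carry a doxycycline-inducible short hairpin RNA (shRNA) against CDAN1. It is represented by 2 of the 6 libraries, 1 from an uninduced culture and 1 from a culture given 1 µg/ml doxycycline. The other 4 libraries, which served as the comparison, came from the other clone with a CDAN1 shRNA (CDAN1-shRNA-c1, here c1) and from cells with a non-targeting shRNA (NT-shRNA, here NT), each uninduced and with 1 µg/ml doxycycline. All cultures were taken at day 4, and puromycin at 2 µg/ml maintained the clones. The labels name each group only by its shRNA, and they do not say whether NT was 1 clone or whether c1 and c2 share a hairpin. Each line gave 1 culture per state, so every p-value below measures only the spread between these 6 libraries, and c2 stands for 1 clone.

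K562 is an established human line from a chronic myeloid leukaemia in blast crisis, driven by the BCR-ABL fusion kinase. Its cells resemble progenitors shared by red cells and megakaryocytes, the large marrow cells that shed platelets. They make embryonic and fetal globins and can be driven by chemical inducers towards either lineage. GATA1 and its partners serve both lineages, whereas the ETS factor FLI1 is known for promoting the megakaryocyte programme and the receptor of erythropoietin for supporting the erythroid one. CDAN1 encodes codanin-1, and its inherited mutations cause a congenital dyserythropoietic anaemia.

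The 6 libraries held between 28318555 and 32352246 estimated reads, with 30922566 in uninduced and 31804735 in induced c2. Mitochondrially encoded genes took 4.64% and 4.9% of the reads in c2 and between 4.31% and 6.11% in the other libraries. Across genes, log2 levels correlated at 0.987 between the 2 c2 libraries and at 0.954 to 0.963 between a c2 library and a library of another line, as a description over genes that are not independent. Levels are given as CPM, reads of a gene relative to the library total as scaled by TMM. GATA1, which serves both the erythroid and the megakaryocyte lineage, stood between 313 and 363 CPM in all 6 libraries.

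CDAN1 (ENSG00000140326, chromosome 15, 42723544 to 42737128 on GRCh38) stood at 55.4 CPM in uninduced and 29.8 CPM in induced c2. It stood at 62.5 and 70.2 CPM in uninduced and induced NT, and at 37.0 and 16.97 CPM in uninduced and induced c1. The induced c2 library was thus below its own uninduced library and below both NT libraries, and it lay between the 2 c1 libraries. Over both states the level in c2 overlapped that of the other lines, with a log2 difference of −0.18 ± 0.57 (SE, 2 against 4 libraries; adjusted p = 0.921, edgeR).

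Clone c2 differed from the other lines mainly through genes that were higher in it. With doxycycline state as a covariate, edgeR's quasi-likelihood test (Benjamini-Hochberg adjusted p under 0.05) called 218 of 14075 genes higher in c2 (1.55%) and 75 lower (0.533%). A call means that c2 differed from the mean of the 4 other libraries by more than the spread among all of them, the difference between NT and c1 included. The median log2 fold change was 2.04 among the genes called higher and −1.23 among those called lower, against −0.02 over all genes tested. Of the calls, 176 and 41 were over 2-fold, and 206 and 73 were protein-coding genes. Before adjustment, 2251 of the 14075 genes tested had a p under 0.05 in this fit (edgeR).

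A second fit gave each line a term of its own and asked that c2 differ from NT and from c1 in the same direction. This fit, which takes its spread from the doxycycline response of the lines, called 610 genes higher (4.33%) and 278 lower (1.98%). All 218 and 75 genes of the first fit were among them. In all 218 both c2 libraries lay above the 4 others and in all 75 both lay below, where 16.1% and 14.6% of all genes tested did so. A call selects for such separation, so it adds no support of its own. With either c2 library left out the first fit called 0 genes, with 868 genes at an unadjusted p under 0.05 without the uninduced and 823 without the induced library, while the second fit called 350 higher and 179 lower, or 341 higher and 164 lower. Of these, 324 and 149, or 323 and 140, were among its 610 and 278 calls on all libraries. In these fits c2 is 1 library and is assumed to vary like the other lines. The loss of the first fit without either c2 library applies to each of its calls named below. Genes that the second fit alone called are named below after their values were seen. With the same model DESeq2 called 667 higher and 350 lower and voom 372 and 83, and both tools called all 218 genes that edgeR called higher.

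The same test with c1 as the single line called 472 genes (3.35%), 161 higher and 311 lower. With NT as the single line it called 25 (0.178%), 12 higher and 13 lower. These fits use the same 6 libraries as that of c2, and the difference between their counts was not tested.

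**Figure D1:**
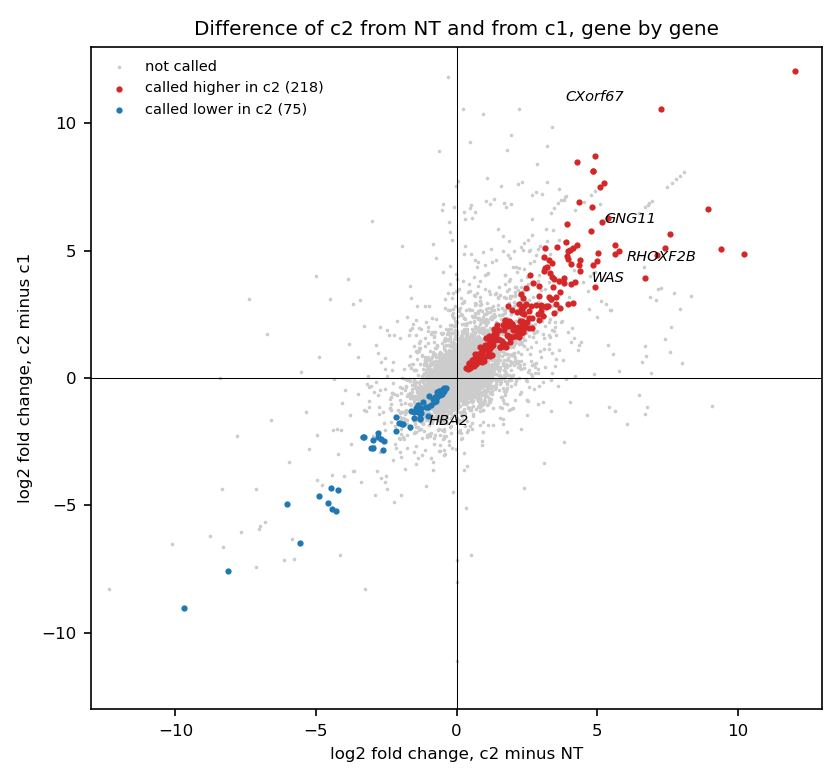
Log2 fold change of c2 against NT (horizontal axis) and against c1 (vertical axis), 1 point per gene tested, with the 218 genes called higher in c2 in red, the 75 called lower in blue and the rest in grey. The called genes lie in the upper right and lower left, where c2 departs from both other lines in the same direction.

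A call rests on both doxycycline states, so the size of the difference is given for each, as a description. Among genes called higher, the median log2 difference of c2 from the mean of NT and c1 was 2.00 in the uninduced and 2.02 in the induced libraries, and among genes called lower it was −1.23 and −1.19. Within c2 the called genes differed between the induced and the uninduced library by a median of 0.15 on the log2 scale in either direction, and 3 of them (CGA, IGLL5 and SYT1) by more than 1. A test of whether the doxycycline response differed between c2 and the other lines called 0 of 14667 genes (0%) with edgeR, at a smallest adjusted p of 0.367, with 68 genes at an unadjusted p under 0.05. DESeq2 called 4 and voom 0.

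Among the genes with the largest difference, several encode proteins of the cytoskeleton and signalling of blood cells. WAS, the actin regulator deficient in Wiskott-Aldrich syndrome, stood at 51.5 and 52.3 CPM in uninduced and induced c2. It stood at 2.52 and 2.48 CPM in NT and at 2.19 and 2.61 CPM in c1, so the groups lay far apart and both states of each line were nearly alike. Its log2 fold change was 4.40 ± 0.11 (SE, 2 against 4 libraries; adjusted p = 0.000413, edgeR). PLEK, the protein kinase C substrate pleckstrin of platelets and leukocytes, had 48.3 and 28.4 CPM in c2 against 3.62 and 2.74 CPM in NT and 1.77 and 0.496 CPM in c1. FYB1, an adaptor that couples receptors to integrins in T cells and platelets, had 37.2 and 26.6 CPM in c2 and between 0.430 and 2.41 CPM elsewhere. For both genes the NT libraries lay above the c1 libraries and far below c2. PLS3, an actin-bundling plastin, had 5.28 and 6.20 CPM in c2 and at most 0.150 CPM in another library.

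Signalling and secreted factors followed. GNG11, a gamma subunit of heterotrimeric G proteins, had 53.8 and 41.4 CPM in c2, 1.66 and 1.69 CPM in NT, and 0.601 and 0.298 CPM in c1, with a log2 fold change of 5.49 ± 0.58 (adjusted p = 0.016, edgeR). TFPI2, a secreted Kunitz-type protease inhibitor that lies near GNG11 on chromosome 7, had 28.5 and 18.1 CPM in c2 and between 0.212 and 1.77 CPM elsewhere. MYCT1, a nuclear protein first described as a target of MYC, had 7.30 and 5.97 CPM in c2 and at most 0.413 CPM elsewhere. MX2, an interferon-induced GTPase, had 13.1 and 13.4 CPM in c2, 0.377 and 0.488 CPM in NT and 1.13 and 1.06 CPM in c1. It was the 1 gene called in the first fit of 23 interferon-response genes tested, whose median log2 fold change was −0.07, and the second fit added IFITM1 and IFITM2 as higher and BST2 as lower. Among all genes tested the first fit called 1.55% higher, and the second 4.33% higher and 1.98% lower. CLEC2L, a C-type lectin, and SHANK3, a scaffold of synapses, completed this group at 21.2 and 22.8 CPM and at 5.48 and 5.61 CPM in c2, each above all 4 other libraries.

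Genes of the germ line on the X chromosome were also among the largest differences. CXorf67 (also known as EZHIP), whose product inhibits the Polycomb methyltransferase EZH2, had 191 and 198 counts in c2 against 2, 0, 0 and 0 in the others, a ratio of 366 with a 95% interval of 101 to 3040 that covers counting error only (exact binomial). ATP10A, a phospholipid flippase on chromosome 15, had 67 and 68 counts in c2 and 6 in all in the others. Its ratio was 42.4 (95% interval 18.97 to 118, same method). Both genes were picked for their few counts outside c2, and the counts of each side were pooled. Both intervals therefore describe the counts and give no support for the difference. CT47A12, of a family of near-identical cancer-testis genes, had 539 and 559 counts in c2 and 0 elsewhere, at least 176-fold higher against a floor of 3 counts per library. Summed over the 4 CT47A genes in the files, however, NT held 26.5 and 25.4 CPM, c2 18.5 and 18.6 CPM, and c1 1.02 and 2.74 CPM, so the family as a whole was not higher in c2 than in NT. The reads of these copies cannot be divided with certainty, and the call of CT47A12, which is among the 218, is uncertain.

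RHOXF2B, a homeobox gene of the reproductive tract, had 45.9 and 44.9 CPM in c2 and between 0.678 and 1.31 CPM elsewhere. Its near-identical copy RHOXF2 took most of the shared reads, and the pair summed to 274 and 264 CPM in c2 against 144 and 144 CPM in NT and 183 and 174 CPM in c1. The pair was therefore higher in c2 by much less than the single copy. IGLL5, an immunoglobulin lambda-like gene that overlaps the lambda light chain locus, had 7.61 and 2.99 CPM in c2 and at most 0.247 CPM elsewhere.

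Genes called lower included secreted and germ-line proteins. SOD3, the extracellular superoxide dismutase, was at 0.308 and 0.531 CPM in c2 and between 7.45 and 10.1 CPM elsewhere. PRDM9, the methyltransferase that places meiotic recombination sites, was at 0.960 and 0.630 CPM in c2 and between 13.4 and 17.2 CPM elsewhere. Neither gene overlapped between c2 and the other lines, as the rule for naming them required.

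Other genes called lower encode matrix, surface and metabolic proteins. PLOD2, a lysyl hydroxylase of collagen, had 3.60 and 3.38 CPM in c2, 35.7 and 32.5 CPM in NT and 17.98 and 16.8 CPM in c1. MXRA8, a surface protein used as a receptor by alphaviruses, had 6.37 and 8.06 CPM in c2 and between 18.5 and 32.5 CPM elsewhere. The adhesion receptor ADGRA3 had 4.46 and 4.31 CPM in c2 and between 24.0 and 27.98 CPM elsewhere. AKR1C1 and AKR1C3, aldo-keto reductases of steroid metabolism, were the 2 genes called in the first fit of 21 targets of the oxidative stress factor NRF2. The second fit called 4 lower (adding AKR1C2 and FTL) and 2 higher (ABCC3 and AKR1B1). Among all genes tested the first fit called 0.533% lower, and the second 1.98% lower and 4.33% higher. Since AKR1C copies share reads, their sum with AKR1C2 is the safer value, at 12.8 and 9.54 CPM in c2 and between 31.4 and 45.7 CPM elsewhere. NPTXR, ANKEF1, ST8SIA4, SYBU, CDH12, MUC15 and LITAF were also among the 14 largest decreases, with log2 fold changes between −2.91 and −1.88.

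**Figure D2:**
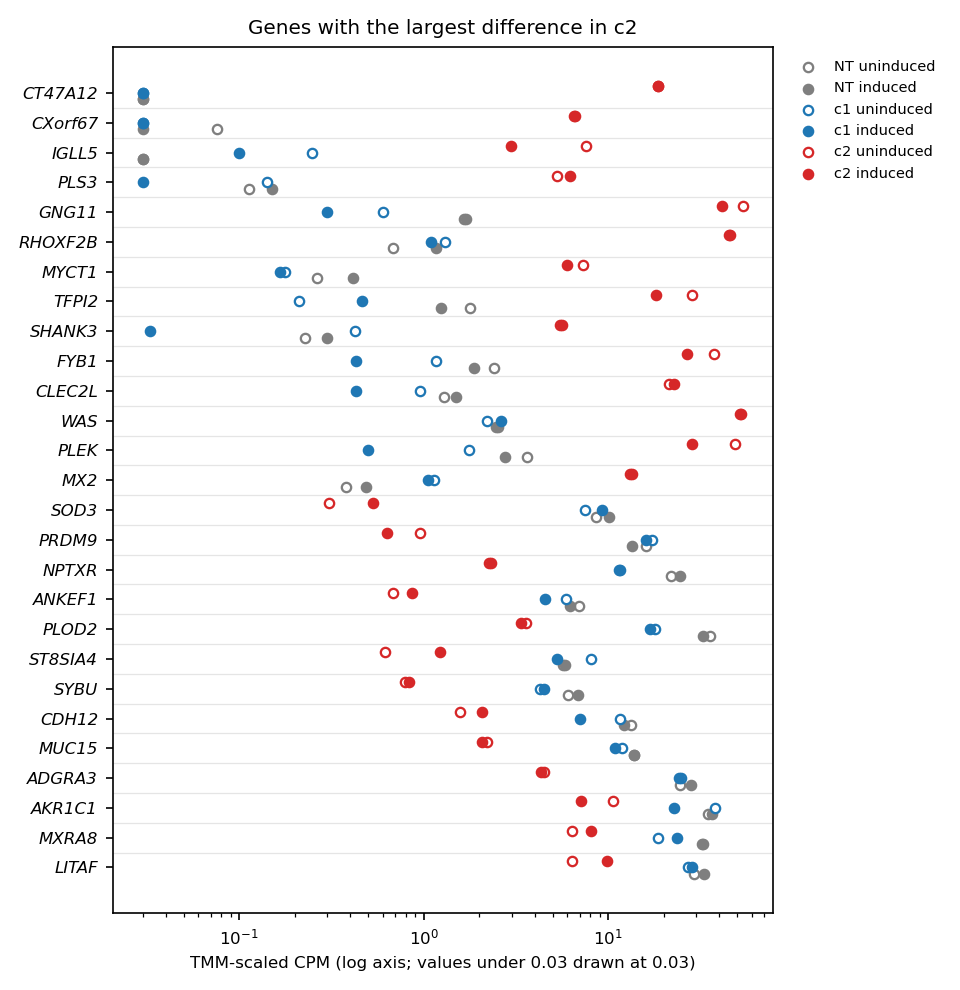
CPM (log axis) of the 14 protein-coding genes with the largest increase and of 13 of the 14 with the largest decrease in c2, 1 point per library, with open symbols for uninduced and filled symbols for induced cultures. By the rule for naming them, in each gene both c2 points (red) lie beyond the 4 points of NT (grey) and c1 (blue). CT47A12 and RHOXF2B share reads with near-identical copies.

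Most of the tested genes of the megakaryocyte and platelet programme were higher in c2. Of 25 listed genes 20 were tested, and 13 of these (65%) had both c2 libraries above the 4 others, against 16.1% of all genes tested. The first fit called 3 higher (MMRN1, GP9 and ITGB3) and none lower. The second fit called 11 higher (55%, against 4.33% of all genes), adding FLI1, ITGA2B, PPBP, RAB27B, SELP, SRGN, THBS1 and VWF, and none lower. The median log2 fold change of the 20 genes was 2.02 (1.35 against NT and 2.70 against c1), beside −0.02 over all genes. Their summed level was 1598 and 1525 CPM in c2, 1354 and 1218 CPM in NT, and 1079 and 1090 CPM in c1. The sum differed by much less than the median gene, since abundant members such as GP1BB lay within the range of the other libraries. In a bulk library, more cells of such a type and more of their RNA per cell cannot be told apart.

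The fibrinogen receptor of platelets is a pair of integrin subunits, and both were higher in c2. ITGA2B, the alpha subunit (chromosome 17, 44372180 to 44389505 on GRCh38), stood at 154 and 145 CPM in c2, 38.8 and 32.1 CPM in NT, and 13.6 and 11.6 CPM in c1. NT lay between c1 and c2, and the log2 fold change of c2 was 2.08 ± 0.08 against NT and 3.57 ± 0.08 against c1 (adjusted p = 1.57e-05 in the second fit, edgeR; 0.0688 in the first). ITGB3, the beta subunit, stood at 50.8 and 42.4 CPM in c2, 11.1 and 8.96 CPM in NT, and 7.28 and 5.32 CPM in c1, with a log2 fold change of 2.52 ± 0.25 (adjusted p = 0.014, edgeR). Per length, ITGA2B had 72.5 and 66.7 TPM and ITGB3 15.6 and 12.8 TPM in c2, so the alpha subunit was the more abundant of the pair.

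Of the von Willebrand factor receptor, GP9 was called and the other subunits were not. GP9 had 1.41 and 1.66 CPM in c2, 0.0377 and 0.113 CPM in NT, and no reads in c1 (adjusted p = 0.0496, edgeR). GP1BB, by contrast, had 196 and 190 CPM in c2, within the range of 181 to 307 CPM of the other libraries, and GP5 had no reads in any library. Proteins stored in platelet granules included several of the calls. MMRN1, which binds coagulation factor V, had 9.70 and 7.30 CPM in c2 and between 0.761 and 1.24 CPM elsewhere, a log2 fold change of 3.21 ± 0.23 (adjusted p = 0.00793, edgeR). SELP, the adhesion molecule P-selectin, had 15.1 and 14.7 CPM in c2 and at most 0.980 CPM elsewhere (adjusted p = 0.0546 in the first fit and 0.00633 in the second, edgeR). THBS1 (thrombospondin-1) had 77.7 and 70.8 CPM in c2, 26.9 and 17.97 CPM in NT and 5.55 and 5.89 CPM in c1. PPBP, a platelet chemokine, had 6.31 and 4.91 CPM in c2 and at most 0.528 CPM elsewhere.

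FLI1, the ETS transcription factor of this lineage, stood at 21.97 and 18.1 CPM in c2, 1.39 and 1.43 CPM in NT, and 0.247 and 0.0661 CPM in c1. It passed the second fit (adjusted p = 0.000118, edgeR) and not the first (0.0732), where the gap between NT and c1 adds to the spread. Among the members whose libraries overlapped were GP6, NBEAL2, PEAR1, TGFB1, CD9 and TUBB1, and TREML1 had no reads. Without the uninduced or the induced c2 library the first fit called 0 of these genes and the second 10 or 8. When reads of transcripts that match no gene of the annotation were kept in the fit, the second fit called 3.

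**Figure D3:**
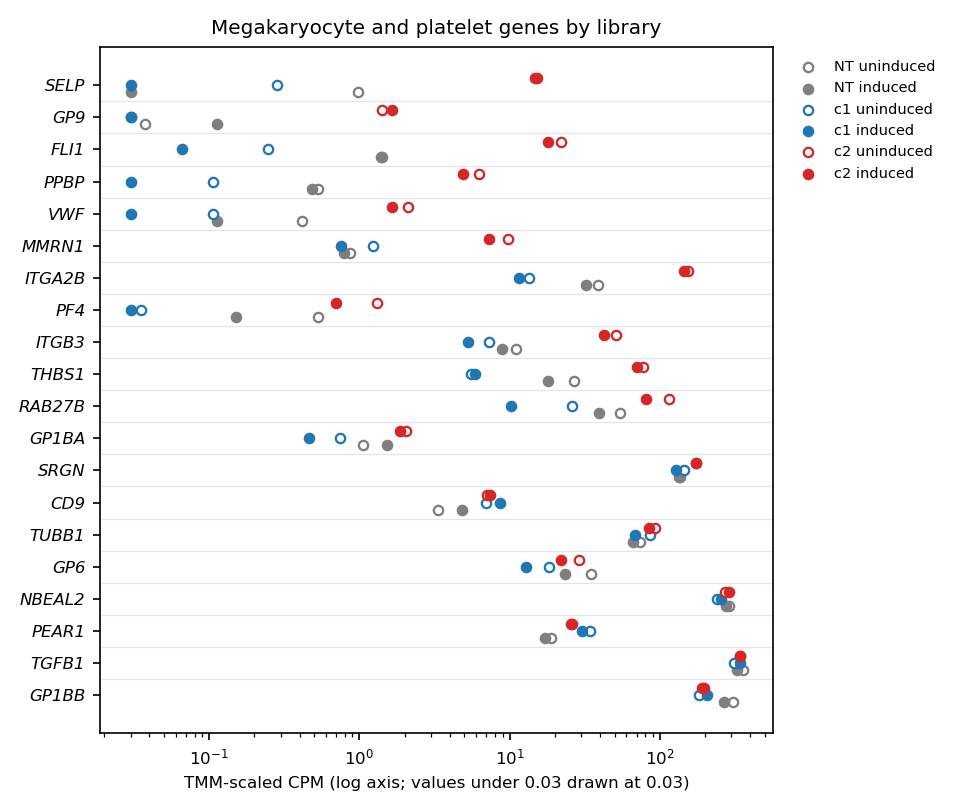
CPM (log axis; values under 0.03 drawn at 0.03) of the 20 megakaryocyte and platelet genes tested, ordered by log2 fold change of c2 against the other lines, 1 point per library. In the upper 13 rows both c2 points (red) lie to the right of NT (grey) and c1 (blue), as in ITGA2B at 154 and 145 CPM; in the rows below they overlap.

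Embryonic and alpha-type globins were lower in c2. Of 9 globin genes tested, the first fit called HBZ, HBA1 and HBA2 lower (33.3%, against 0.533% of all genes) and none higher. The second called 5 lower (55.6%, against 1.98%), adding HBE1 and HBG2. In 7 of the 9 (77.8%) both c2 libraries lay below the 4 others, against 14.6% of all genes tested. HBZ, the embryonic alpha-like globin, stood at 852 and 1063 CPM in c2, 1752 and 1846 CPM in NT, and 1794 and 2140 CPM in c1. The log2 fold change of HBZ was −0.98 ± 0.08 (adjusted p = 0.0116, edgeR). HBA1 fell by 0.83 ± 0.06 (adjusted p = 0.00793) and HBA2 by 1.30 ± 0.13 (adjusted p = 0.0137, both edgeR). These 2 genes encode the same protein and share reads, and their sum was 1508 and 1846 CPM in c2 against 2943 to 3390 CPM in the other libraries, so the decrease did not depend on how reads were divided between them.

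The beta-like globins had adjusted p between 0.108 (HBG2) and 0.771 (HBB) in the first fit (edgeR) and were not called there. HBE1, the embryonic form, had 2591 and 2845 CPM in c2 against 3208 to 4206 CPM elsewhere, a log2 fold change of −0.47 ± 0.13. HBG1 and HBG2, the fetal forms, summed to 5703 and 6311 CPM in c2 and to between 6843 and 7411 CPM elsewhere. HBD was the 1 globin whose c2 libraries lay above all others, at 19.5 and 14.5 CPM against 5.62 to 11.6 CPM, and it was not called. The summed level of the listed globins was 10686 and 12095 CPM in c2 and between 15477 and 16745 CPM in the other 4 libraries, which did not overlap with c2. Without either c2 library the first fit called 0 globins, and the second called 3 without the uninduced and 4 without the induced one.

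**Figure D4:**
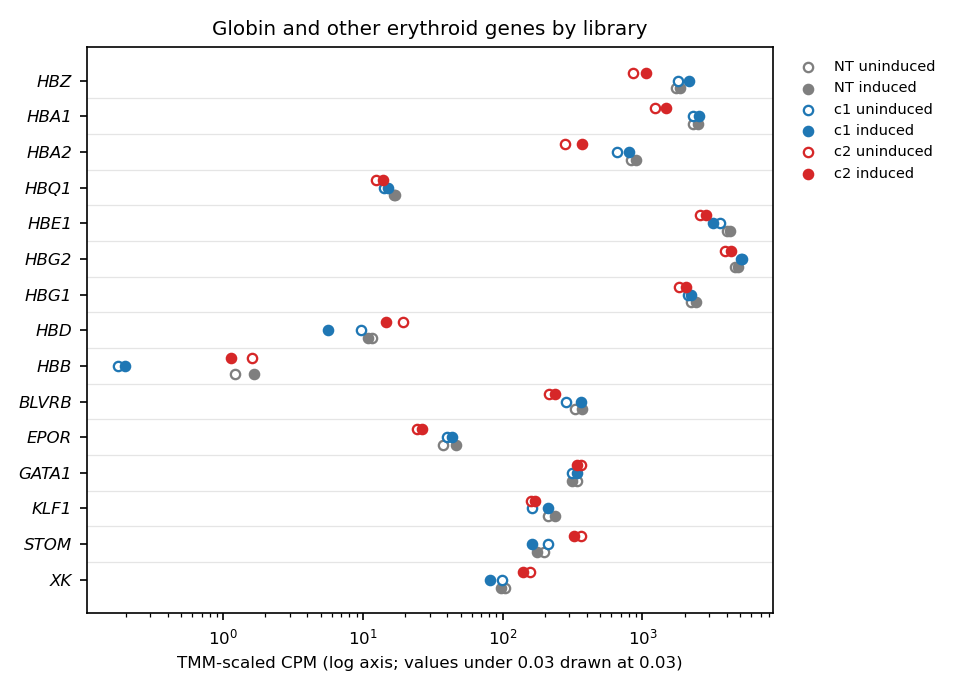
CPM (log axis) of the 9 globin genes tested and of 6 other erythroid genes, 1 point per library. Both c2 points (red) lie to the left of all others in 7 of the 9 globin genes, HBZ, HBA1 and HBA2 among them, and in BLVRB and EPOR. They lie to the right in HBD, STOM and XK and overlap the others in KLF1.

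Beyond the globins, EPOR and BLVRB were called lower in the first fit and STOM and XK higher. Among all genes tested that fit called 0.533% lower and 1.55% higher, and the second 1.98% and 4.33%. EPOR, the erythropoietin receptor, had 24.5 and 26.3 CPM in c2, 37.2 and 46.1 CPM in NT and 39.6 and 43.4 CPM in c1. EPOR fell by 0.71 ± 0.09 (adjusted p = 0.0292, edgeR) and was the 1 gene called in either fit of 18 erythroid regulators, whose median was 0.00. BLVRB, which reduces biliverdin, fell by 0.57 ± 0.08 (adjusted p = 0.0367, edgeR) and was the 1 gene called in the first fit of 15 genes of erythroid maturation (median −0.10), to which the second fit added GDF15 and SLC2A1, both lower. Of 15 genes of haem synthesis and transport 6 lay below all other libraries (14.6% of all genes did), 14 had a negative log2 fold change, and the median was −0.22. None was called by edgeR in the first fit and 1, lower, in the second. In the first fit 4 had an unadjusted p under 0.05, and DESeq2 called 1 and voom 0. For comparison, 46.7% of all genes tested had a positive log2 fold change. The lean was not particular to haem genes. Sterol and fatty acid synthesis (9 of 24 below all others, 18 negative) and ribosomal proteins (26 of 79, 64 negative) leaned the same way. Glycolysis and hypoxia (1 of 27, 11 negative) and S phase (2 of 24, 13 negative) did not.

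Of 28 red cell membrane and blood group genes, 2 were called higher in both fits (7.14%, against 1.55% of all genes in the first and 4.33% in the second). The first fit called none lower and the second 2, DMTN and RHD (7.14%, against 1.98%). Of the 28, 7 lay below all other libraries (25%, against 14.6% of all genes) and 3 above (10.7%, against 16.1%). The log2 fold change was negative in 24 and the median was −0.29, while 46.7% of all genes tested were positive. STOM, the membrane protein stomatin, had 362 and 325 CPM in c2 and between 161 and 212 CPM elsewhere, a log2 fold change of 0.89 ± 0.07 (adjusted p = 0.0111, edgeR). XK, which carries the Kx blood group antigen, had 157 and 140 CPM in c2 and between 81.6 and 104.5 CPM elsewhere (log2 fold change 0.64 ± 0.09, adjusted p = 0.0352, edgeR). GATA1, named outside the rule, had a log2 fold change of 0.11 ± 0.07 (adjusted p = 0.535), and none of 16 genes of iron uptake and storage was called in the first fit by the same test and 1, FTL, was lower in the second (median −0.06; 3 at an unadjusted p under 0.05, with 1 called by DESeq2 and 0 by voom).

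The RefSeq promoter table (GRCh38.p14) was searched for AGATAA, a sequence that GATA factors bind, on both strands (AGATAA or TTATCT) in the 250 bases before each start site. Of 10328 genes tested with an entry, 7.21% held it. Among the called genes 12 of 151 called higher held it (7.95%) and 6 of 51 called lower (11.8%), shares that are descriptions with no test. Of the 28 genes with the largest differences, 19 had an entry, and FYB1, MYCT1 and ST8SIA4 held it. EPOR was the 1 match found among the called globin, regulator, maturation, membrane and megakaryocyte genes. HBZ, HBA1, HBA2 and ITGB3, which are among those called genes, had no entry and were not searched. Of the 20 megakaryocyte and platelet genes tested, called or not, 14 had an entry and 2 held it (14.3%). The windows of EPOR, FYB1, MYCT1 and ST8SIA4 are shown so that the letters around each match can be read beside the change in level. Each is 30 bases, 5′ to 3′ on the strand of the gene, with the match in capitals.
EPOR, chr19:11384375-11384404, minus strand, match starting 78 bases before the start site: cccgccaggcacTTATCTctacccaggctg
FYB1, chr5:39270721-39270750, minus strand, 89 bases before: ctctgagggttgAGATAAcatgcaaatgta
FYB1, chr5:39270760-39270789, minus strand, 128 bases before: aaaataataacaAGATAAacctggccagct
MYCT1, chr6:152697826-152697855, plus strand, 108 bases before: tgtggaattccaAGATAAgaaaaacagttg
ST8SIA4, chr5:100903294-100903323, minus strand, 29 bases before: tttgcgcagcgtTTATCTcctagcaagagg
EPOR and ST8SIA4 were lower and FYB1 and MYCT1 were higher in c2. Windows were shown only for genes picked because they differed in either direction, so these directions say nothing about the sequence. A match describes letters in the window and not a bound site.

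Markers of other blood and vessel cells were checked over whole lists. For comparison, the first fit called 1.55% of all genes tested higher and 0.533% lower, and the second 4.33% and 1.98%. Of 11 endothelial genes tested, 3 were called higher in the first fit and TEK as well in the second, the median log2 fold change was 0.73, and the list summed to 299 and 294 CPM in c2 and to between 230 and 263 CPM elsewhere. ENG (endoglin) had 6.68 and 5.11 CPM in c2 against 1.12 to 1.84 CPM, ESAM had 31.98 and 32.7 CPM against 1.73 to 6.03 CPM, and PECAM1 had 42.2 and 32.3 CPM against 16.3 to 23.8 CPM. ESAM and PECAM1 are known from the surface of platelets as well as from endothelium. ROBO4 and SOX17 had no reads in any library. Of 13 granulocyte and monocyte genes tested the first fit called 1, CD33, a sialic acid receptor of myeloid cells with 25.6 and 28.5 CPM in c2 and between 6.82 and 12.1 CPM elsewhere. The list's median was −0.03, its sum was 328 and 290 CPM in c2 and 274 to 351 CPM elsewhere, and ELANE and CTSG had no reads. The second fit added SPI1, a master regulator of myeloid cells, with 21.2 and 24.2 CPM in c2 against 8.16 to 13.5 CPM (adjusted p = 0.0412, edgeR), and FCER1G as higher and CST3 as lower.

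Of 11 stem and progenitor genes tested, MEIS1, a homeodomain factor of early progenitors and megakaryocytes, was called higher in both fits. It had 26.6 and 21.7 CPM in c2 and between 8.56 and 13.6 CPM elsewhere, and the list's median was 0.20. Among all genes tested the first fit called 1.55% higher and 0.533% lower, and the second 4.33% and 1.98%. The 5 lymphoid genes tested included PAX5, the B cell factor, called higher at 1.27 and 1.16 CPM against at most 0.0750 CPM, and CD3D, a T cell receptor subunit, called lower at 12.3 and 7.37 CPM against 18.9 to 23.5 CPM, and the second fit added CD3G as lower. MS4A1 and CD8A had no reads, and the summed list stood at 17.9 and 12.8 CPM in c2 and 24.3 to 46.9 CPM elsewhere. None of 6 mast cell, basophil and eosinophil genes was called by edgeR in either fit or by voom, while 1 was called by DESeq2 and 1 had an unadjusted p under 0.05 (median 0.09; sum 194 and 203 CPM in c2 and 214 to 309 CPM elsewhere), and CPA3 and CMA1 had no reads. What part such markers have in the other differences of c2 was not tested.

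Regulators of the fetal and oncofetal state changed in opposite directions. HMGA2, a chromatin protein of fetal tissues and tumours, had 18.5 and 16.7 CPM in c2, 1.88 and 2.14 CPM in NT, and 0.742 and 0.562 CPM in c1, a log2 fold change of 3.72 ± 0.55 (adjusted p = 0.038, edgeR). DLK1, an imprinted Notch ligand, had 80.2 and 71.6 CPM in c2 and between 138 and 213 CPM elsewhere, and fell by 1.27 ± 0.20 (adjusted p = 0.0446, edgeR). Of the other 8 of 10 genes tested in that list, the first fit called none and the second LIN28A, as higher, and the median was 0.07. Among all genes tested the first fit called 1.55% higher and 0.533% lower. Of 34 matrix and adhesion genes, LAMC1 and SPARC were called higher and TIMP1 lower in the first fit, at a median of 0.21. The second fit called 7 higher (20.6%, against 4.33% of all genes) and 4 lower (11.8%, against 1.98%). LAMC1, the gamma chain of most laminins, had 8.74 and 11.05 CPM in c2 and between 0.339 and 0.863 CPM elsewhere. SPARC, a collagen-binding protein also held in platelet granules, had 103 and 115 CPM against 34.0 to 47.2 CPM. TIMP1, an inhibitor of matrix proteases, had 156 and 141 CPM against 235 to 264 CPM.

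Of 27 genes of the BCR-ABL and STAT5 axis, PTPN6, a phosphatase of blood cells, was called higher and CISH, a feedback inhibitor induced by STAT5, lower, and the second fit added SOCS2 as lower. PTPN6 had 5.31 and 6.34 CPM in c2 and between 0.750 and 1.62 CPM elsewhere, and CISH had 104 and 113 CPM against 147 to 178 CPM. Of 27 glycolysis and hypoxia genes PKM, the pyruvate kinase, was called higher, by 0.50 ± 0.07 (adjusted p = 0.0354, edgeR), and the second fit added PFKP as higher and SLC2A1 as lower. Of 32 replication-dependent histone genes HIST1H1C was called lower in the first fit, with HIST1H2BC added in the second. Of 429 zinc finger genes named ZNF, ZNF655 was called higher in the first fit (0.233%). The second fit called 13 of the ZNF genes higher (3.03%) and 2 lower (0.466%). Over all genes tested the first fit called 1.55% higher and 0.533% lower, and the second 4.33% and 1.98%. The ZNF genes were thus called less often than genes at large. In the first fit edgeR called none among 24 genes of S phase (median 0.00), 25 of G2 and M phase (0.05), 20 targets of p53 (−0.15), 27 targets of ATF4 (−0.11), 24 genes of sterol and fatty acid synthesis (−0.12), 32 of TGF-beta and BMP signalling (0.13) or 6 of HLA presentation (0.04). The 13 genes of hairpin processing (−0.01) and the 8 of CDAN1 and its partners (−0.05) had no call in that fit either, nor had 13 mitochondrially encoded (−0.15) or 79 ribosomal protein genes (−0.09). Of the 271 genes in these 11 lists, 47 had an unadjusted p under 0.05 and DESeq2 called 18 and voom 1. Of all 14075 genes tested, 2251 had an unadjusted p under 0.05 and DESeq2 called 1017. The unadjusted and DESeq2 counts of these lists were thus near the shares over all genes. The second fit called 6 of the 271 genes higher and 8 lower. The 21 HOX genes tested had no call in the first fit and 1 in the second, HOXD4, higher (6 at an unadjusted p under 0.05, 1 called by DESeq2 and 2 by voom), with a median of 1.07 against NT and 0.20 against c1.

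Part of the difference followed position along the chromosomes. On chromosome 17, genes near the end of the long arm were lower in c2 as a block. Runs of 25 neighbouring tested genes were kept where their median log2 fold change departed from that of all genes by over 0.4. The departure was required against both NT and c1, and it gave 5 stretches. Overlapping runs were merged in these, so the median over a merged stretch can be smaller. The stretches were picked on these same fold changes. The signs, separation and calls counted inside them follow partly from that choice and are descriptions only. From PGS1 to MAFG (78.4 to 81.9 Mb on GRCh38) 41 of 44 genes were negative, 30 lay below all other libraries and 7 were called lower. From NOTUM to RPL23AP87 (82 to 83.2 Mb) 25 of 28 were negative, 23 lay below all others and 6 were called lower. Together these 72 genes held 13 of the 75 genes called lower (17.3%). Of the 72, 18.1% were called lower, where 0.533% of all genes tested were, a share raised by how the stretches were picked.

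The median of the stretch from PGS1 to MAFG was −0.44 against NT and −0.46 against c1, and −0.48 in each doxycycline state. The difference between c1 and NT had a median of −0.01 there. NARF, whose product binds prelamin A in the nucleus, stood at 163 and 160 CPM in c2, 287 and 267 CPM in NT and 312 and 294 CPM in c1. P4HB, the protein disulphide isomerase, stood at 424 and 451 CPM in c2 and between 546 and 634 CPM elsewhere. The other calls of both stretches were ANAPC11, FAAP100, MRPL12, NPLOC4, SLC25A10, SLC38A10, CSNK1D, CYBC1, DUS1L, FN3KRP and TBCD, which share a place rather than a listed function. With runs of 50 genes this was the 1 stretch that remained, from ST6GALNAC1 to the end of the arm (76.6 to 83.2 Mb), with 83 of 93 genes negative and a median of −0.47.

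The 3 stretches that were higher in c2 lay on chromosomes 7, 10 and X. On chromosome 10, from FBH1 to PRPF18 (5.9 to 13.6 Mb), all 26 genes were positive (median 0.40 against NT and 0.40 against c1), 20 lay above all other libraries and 6 were called higher, among them MCM10, a replication factor, and PRKCQ, a protein kinase C of T cells and platelets. On chromosome 7, from CLDN12 to ASNS (90.4 to 97.9 Mb), 29 of 33 genes were positive (median 0.38 against NT and 0.40 against c1) and CDK6, GNG11 and TFPI2 were called higher. Over the whole of chromosome 7, 29.5% of 705 genes lay above all other libraries (16.1% of all genes tested did), at a median of 0.11. On the X, from KLHL15 to FUNDC1 (24 to 44.5 Mb), 27 of 43 genes were positive, where 46.7% of all genes were, and DYNLT3, LANCL3 and XK were called higher. Its median over the merged stretch was 0.29 against NT and 0.11 against c1. The X held 21 of the 218 genes called higher (9.63%), which is 3.95% of the 532 X-linked genes tested, against 1.55% of all genes. On chromosome 15, 37.6% of genes lay above all others, against 16.1% of all genes tested. Its median was 0.05 against NT and 0.53 against c1, however, so this chromosome set c2 and NT apart from c1. No copy number was measured, and its part in these stretches was not tested.

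**Figure D5:**
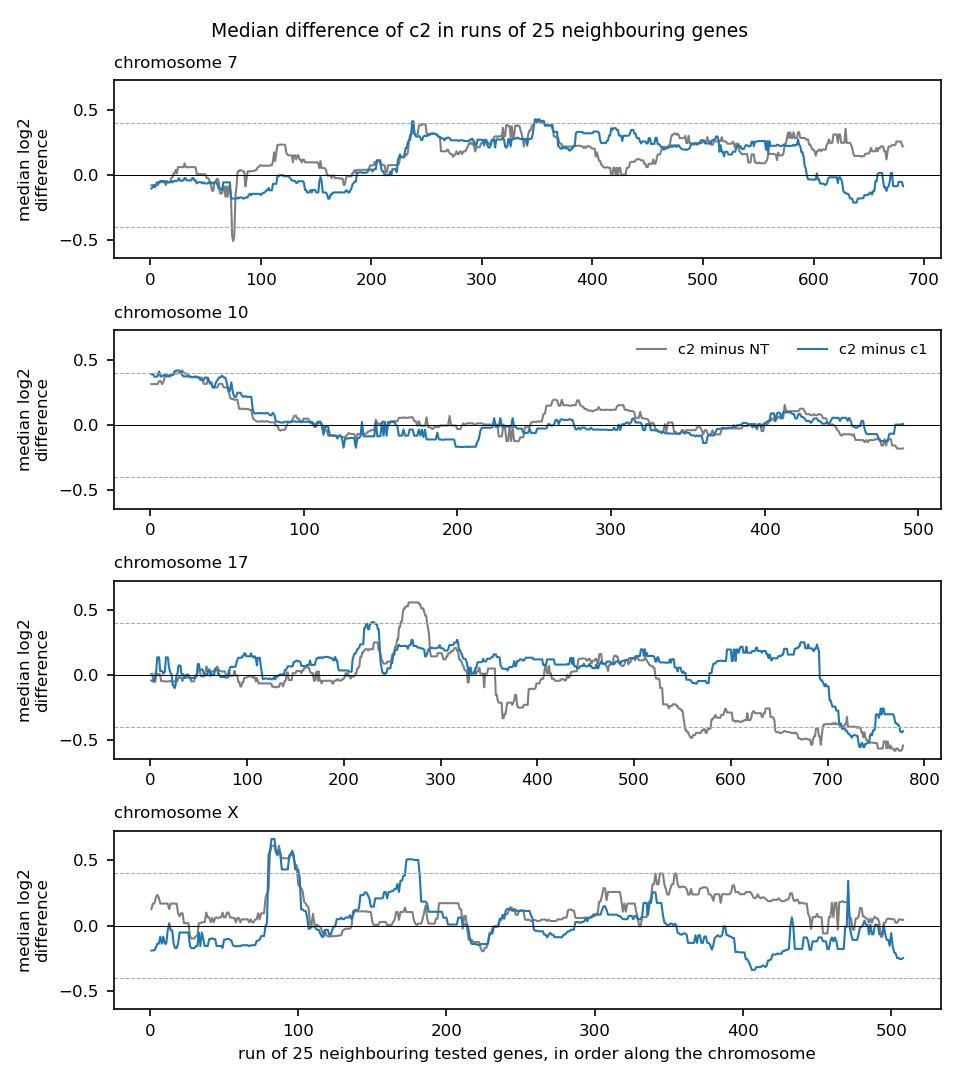
Median log2 difference of c2 from NT (grey) and from c1 (blue) in runs of 25 neighbouring tested genes, in order along chromosomes 7, 10, 17 and X; dashed lines mark 0.4 and −0.4. Both lines fall below −0.4 near the right end of chromosome 17 and rise to about 0.4 at the left end of chromosome 10, in the middle of chromosome 7 and in 1 stretch of the X.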

How the data were processed

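RNA sequencing libraries had been made with the NEBNext Ultra RNA kit, per the labels' protocols, and quantified with Salmon 1.5.2 on GRCh37 (hg19), per the submitters' processing notes; the annotation is not given in the sources used here, nor is the strand. The authors deposited, per transcript, an expected count (estimated reads, not whole), TPM and an effective length, per the file headers. Counts of 151039 of 167268 transcripts (90.3%) matched to GENCODE 29 by identifier were summed to 33367 genes and rounded. Transcripts with no match held 6.23% to 6.5% of reads and entered no test. Coordinates are those of GENCODE 29 on GRCh38.

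Low counts were filtered by filterByExpr, and CPM used TMM and log2 values a prior count of 2. edgeR 4.0.16 (quasi-likelihood, two-sided, R 4.3.3) fitted doxycycline and c2 (3 residual degrees of freedom), or doxycycline and line (2; the larger p of both contrasts, adjusted by Benjamini-Hochberg). DESeq2 1.42.0 and voom (limma 3.58.1) were alternatives. The fits were tested on simulated data.

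The text names the 14 protein-coding genes of largest change in each direction (called in both fits, no overlap, at least 5 CPM), up to 4 genes of smallest p per list, CDAN1, and genes with 3 counts or fewer outside c2 and 2 CPM in it. Other megakaryocyte, globin, endothelial, lymphoid, positional and X-linked names were chosen after their values were seen. Some named genes are not reported here. The lists and the comparison were chosen with earlier results of these data known.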

Additional observations from a re-analysis of the deposited data

Results flagged for a closer look

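Transcripts with no gene in the annotation used were outside the comparisons above. When tested with the first fit, 5 of 4546 such transcripts were called higher in c2 and 11 lower (edgeR, adjusted p under 0.05). They were singled out only because they lie in data that the report does not use, and without names they cannot be placed in a programme.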

How the results depend on the processing

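The main counts were 218 genes higher and 75 lower in the first fit, and 610 and 278 in the second. In the first fit the counts were 667 and 350 with DESeq2, 372 higher with voom, 360 and 119 with no filter on low counts, 127 and 49 with an offset for transcript length, 78 and 36 with unmatched transcripts kept, and 416 and 154 with no doxycycline term. Leaving out 1 library gave 0 to 104 higher and 0 to 31 lower, the lowest without either c2 library and 63 and 18 without induced c1. In the second fit they were 298 and 132 with the length offset and 100 and 46 with unmatched transcripts kept, and 341 to 480 and 164 to 249 with 1 library left out. Asking for over 2-fold as well left 41 lower in the first fit and 315 and 79 in the second. Size factors and library totals gave counts within 1.5 times the main ones. The response test called 4 genes with DESeq2 and 2 with no filter. The 5 chromosomal stretches became 1 with runs of 50 genes. All 218 and 75 genes kept their sign under every alternative run. Of 1357 refitted values of 100 named genes, 907 kept direction and call, 447 lost the call and 3 changed sign, all for CDAN1, which was never called: 0.03 with voom, and between −0.55 (without uninduced c2) and 0.44 (without induced NT) with 1 library left out, 0.17 without induced c2. The causes were not tested. No replicate numbers in the labels pair the libraries. Both fits carry doxycycline state as a term, and only the second matches the libraries of each line through a term for line. At 28318555 to 32352246 reads, genes under about 1 CPM rest on few counts, and 2 libraries of c2 limit every call.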

Other observations

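Other genes called higher in c2 serve signalling in platelets and leukocytes; they were chosen after their values were seen. Of the platelet genes, TBXAS1, which makes thromboxane, had 14.02 and 10.8 CPM in c2 and between 1.24 and 2.33 CPM elsewhere. PTGIR, the prostacyclin receptor, had 5.18 and 5.28 CPM against 0.463 to 1.17 CPM. RASGRP2, the exchange factor that activates the GTPase RAP1 in platelets, had 31.0 and 32.6 CPM against 9.45 to 14.98 CPM, and RAP1B itself had 640 and 486.5 CPM against 262 to 402 CPM (adjusted p = 0.0316 and 0.0375, edgeR). P2RY1, an ADP receptor of platelets, went the other way, at 13.2 and 12.9 CPM in c2 and between 29.3 and 40.5 CPM elsewhere (adjusted p = 0.0181, edgeR).

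Among leukocyte genes, LAPTM5, a lysosomal membrane protein of blood cells, had 147 and 147 CPM in c2 and between 9.42 and 24.7 CPM elsewhere, a log2 fold change of 3.15 ± 0.36. DOCK2, an activator of RAC in leukocytes, had 105 and 106 CPM against 21.8 to 29.7 CPM. CORO1A, an actin-binding coronin, had 18.9 and 17.4 CPM against 0.989 to 1.92 CPM. The tetraspanin CD53 had 91.1 and 85.1 CPM against 33.5 to 39.4 CPM. All 4 were picked from the genes that edgeR called (adjusted p between 0.00793 and 0.0196), so passing its test adds no support of its own. The median log2 fold change was −0.03 over the listed granulocyte and monocyte genes and −0.16 over the listed lymphoid genes. Among genes called lower were ANXA1, a calcium-dependent membrane-binding protein with 160.5 and 132 CPM in c2 against 343 to 466 CPM, and the epithelial keratins KRT8 and KRT19, with log2 fold changes of −0.57 ± 0.08 and −0.89 ± 0.10.

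Several further testis genes of the X were higher. SSX2B had 19.6 and 14.3 CPM in c2 and between 2.64 and 3.80 CPM elsewhere, FAM9B 11.7 and 12.01 CPM against 0.918 to 2.63 CPM, and DDX53 5.45 and 6.01 CPM against 1.17 to 1.55 CPM. Of 26 listed cancer-testis antigens tested, however, 1 was called in the first fit (SSX1, at 123.2 and 129 CPM against 63.7 to 82.3 CPM), 5 were called higher and 1 lower in the second, and the median log2 fold change was 0.20. Among all genes tested the first fit called 1.55% higher, and the second 4.33% higher and 1.98% lower.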
